A study of Mus musculus with 18 samples.

Results

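The 4 mouse stearoyl-CoA desaturase genes, Scd1, Scd2, Scd3 and Scd4, were described across 18 arrays of ileal cells. The genes were chosen by the large differences between diets and between genotypes that their probes showed on these same arrays. Their levels and differences are therefore given as values without a p-value, and tests are kept for measures that did not serve in the choice. Every probe that the array files name for one of the 4 genes was taken. This gave 10 of 56605 probes and 4 of 37074 gene names. Of the 10 probes, 7 passed the filter on dim probes, which asked for a signal well above background on 5 or 6 of the 6 arrays in any group and kept 32726 probes. Since a probe could pass through the group in which it was bright, a count over these 7 describes them only.

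Stearoyl-CoA desaturases are enzymes of the endoplasmic reticulum that place a double bond in saturated fatty acyl-CoAs. They turn stearoyl-CoA into oleoyl-CoA and palmitoyl-CoA into palmitoleoyl-CoA, the monounsaturated acyl groups that are favoured in triglycerides, cholesteryl esters and phospholipids. The reaction uses oxygen and electrons that come through cytochrome b5 and its reductase. Transcription of Scd1 is known to respond to SREBP1c, to the liver X receptors (LXR), to insulin and to dietary fat and sugar. Scd1 is the form best known from liver, fat and intestine, Scd2 from brain and newborn tissues, Scd3 from the glands of the skin and Scd4 from heart.

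RNA of ileum cells was hybridised to Agilent one-colour arrays, 1 array for each mouse, so that a brighter spot stands for more of its transcript. The 12 Pgc1α fl/fl mice received chow (6) or a high-fat diet (HFD, 6), called a Western diet in the paper, and 6 iPgc1α-/- mice received HFD, and chow-fed iPgc1α-/- mice were not analysed here. All mice were on the C57BL6/J background and carried floxed Pgc1α alleles, and the iPgc1α-/- mice also carried Cre under the promoter of villin, a gene of the intestinal epithelium, whereas their littermate controls did not. Feeding began at 8 weeks of age and lasted 8 weeks, HFD gave 42% of kcal from fat with 0.2% cholesterol, and the ileum was taken after an overnight fast at ZT 3 and its cells released in a chelating buffer.

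Over the arrays, 56.3% to 62.3% of 59305 non-control spots were well above background, with median spot intensities of 39 to 61 and local backgrounds of 17 to 23. No spot was saturated. The arrays lay on 3 slides, each with 2 arrays of every group. Enterocyte transcripts such as Vil1, Fabp2 and Sis were well above background on all 18 arrays. Signal of Ppargc1a, the targeted gene, was not reduced in arrays labelled iPgc1α-/-. Its brighter probe read 11.38 ± 0.07 in Pgc1α fl/fl mice on HFD and 11.67 ± 0.26 in the iPgc1α-/- arrays on the log2 scale (SD, n = 6 each), a difference of 0.30 (SE 0.16, limma adjusted p = 0.573). Both Ppargc1a probes lie far along the transcript, from bases 2964 and 2473, and a probe outside the deleted exons does not check the deletion, so genotype below follows the labels. The paper itself checked the deletion by RT-qPCR of Pgc1α in the intestinal tracts. It also reports lower ileal mRNA of the targets Tfam, Cyt-C and Atp5b.

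The Scd probes lay on chromosome 19 of the mm9 build between bases 44289995 and 44471199, a stretch of 181.205 kb in the order Scd3, Scd2, Scd4, Scd1. The sequences below are those of 6 of the 7 probes that passed the filter, without a dim Scd4 probe. They are shown because similar genes can share probe signal. Each is given 5′ to 3′, whole for the Scd3 probe that also lists Scd1 and as the first 30 of 60 bases for the others.
Scd1, bright probe: actcctgggctaagtatctgacagtctcac
Scd1, dim probe: agtttctacacaatccaaggaggaaactaa
Scd2: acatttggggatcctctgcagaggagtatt
Scd3, probe that also lists Scd1: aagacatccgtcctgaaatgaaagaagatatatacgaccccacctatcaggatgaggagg
Scd3, other bright probe: ataaagtcaaccataggtcaagaggcagag
Scd4, bright probe: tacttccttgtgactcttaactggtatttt
Over the 45 pairs of the 10 whole probes, the longest run of bases that any pair shared, on either strand, was 10 bases. Probes were compared only with each other and not with the transcripts of the other genes, so this run does not bear on shared signal. The bright Scd1 probe covered chr19:44469387-44469446 and began at base 4330 of its transcript, the Scd2 probe covered chr19:44381024-44381083 and began at base 5122, and the Scd3 probe that also lists Scd1 covered chr19:44289995-44290054 and began at base 363. The dim Scd1 probe, at chr19:44471140-44471199, is tied in the array file to cDNA clones only. Its coordinates are listed in ascending order, opposite to those of the bright probe. Of 16371 probes for genes on the minus strand, 99.1% are listed in descending order, against 0.742% of 16579 on the plus strand, so the strand of the dim probe is uncertain. Exons and untranslated regions were not read from an annotation here.

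Scd1 showed the widest range of the family. The bright Scd1 probe read 139.5, 63, 45, 77.5, 83 and 70 intensity units in the 6 chow mice. In Pgc1α fl/fl mice on HFD it read 5748.5, 5286, 4518, 3961.5, 6647 and 3329 units. In the iPgc1α-/- mice on HFD it read 8115, 9114, 9453, 19958, 23136.5 and 5727 units. Every HFD mouse was far above every chow mouse, while in raw units the lowest iPgc1α-/- mouse lay below the highest Pgc1α fl/fl mouse on HFD. The probe was well above background on all 18 arrays, so each of these is a measured level. After normalization, which brings the arrays of a group to a shared distribution, the log2 level was 6.14 ± 0.51 for chow, 12.28 ± 0.30 in Pgc1α fl/fl mice on HFD and 13.44 ± 0.54 in iPgc1α-/- mice on HFD (SD, n = 6 each). The diet difference in Pgc1α fl/fl mice was 6.14 (SE 0.24) on the log2 scale, a 70.7-fold difference. By genotype on HFD the difference was 1.16 (SE 0.24), or 2.24-fold. On the normalized scale neither contrast overlapped: the HFD mice of Pgc1α fl/fl genotype spanned 11.74 to 12.56, the iPgc1α-/- mice 12.67 to 14.11 and the chow mice 5.55 to 7.04. The highest Pgc1α fl/fl and the lowest iPgc1α-/- value on HFD were thus close to each other, whereas chow was separated from both by a wide gap. Since RNA came from all cells of the suspension, fewer cells of a type and less RNA per cell cannot be told apart at these or any later values.

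**Figure D1:**
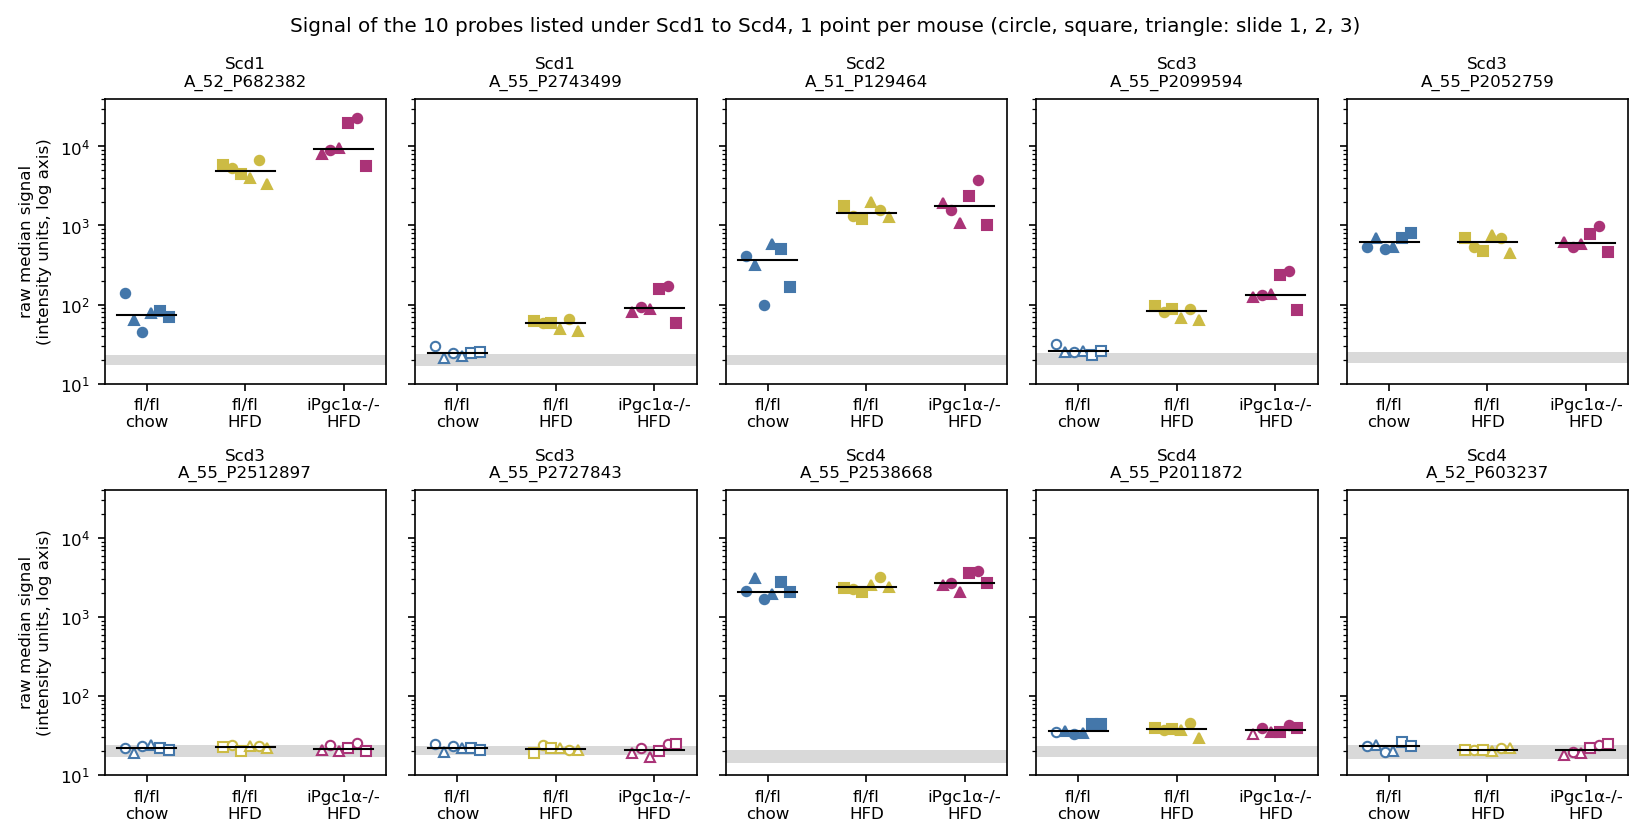
Raw median signal in intensity units (log axis) of the 10 Scd probes in the 3 groups, 1 point for each mouse, with the marker shape giving the slide, the line the group median and the grey band the range of local background. Open symbols are spots not well above background. The bright Scd1 probe had group medians of 73.75 units for chow, 4902 in Pgc1α fl/fl mice on HFD and 9283.5 in iPgc1α-/- mice on HFD, and the Scd2 probe 362.25, 1442.5 and 1758.5.

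The same order held on each slide. Within slides, the diet difference of the bright Scd1 probe was 6.21, 6.31 and 5.91, and the genotype difference 1.15, 0.99 and 1.34 on the log2 scale, with 2 arrays of each group per slide. Part of the chow signal was local background, since those spots read as low as 45 units. Once the local background was subtracted, chow spanned 24.1 to 124 units. With that signal scaled to the 75th percentile of each array, the diet difference widened from 6.14 to 6.80 while the genotype difference was 1.14. With normexp background correction, offset 50 and quantile normalization, the diet difference was 5.61.

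The dim Scd1 probe gave the same order of groups near the floor of the assay. It read 21 to 30 units on chow (median 24), 46 to 65 in Pgc1α fl/fl mice on HFD (median 58.5) and 59 to 170 in iPgc1α-/- mice on HFD (median 89.5). On chow it was not well above background on any of the 6 arrays, and on HFD it was on all 12. The chow level is therefore a bound. On the main normalized scale the signal was at least 2.24-fold higher in Pgc1α fl/fl mice on HFD. For iPgc1α-/- mice on HFD it was at least 3.89-fold higher. With normexp correction and offset 50 the diet difference was 0.71 on the log2 scale, which is below the first bound. Both bounds therefore hold for the main processing only. Between genotypes on HFD the difference was 0.80 (SE 0.14) on the log2 scale, and the groups overlapped.

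Scd2, encoded in the same cluster, differed by diet and showed little difference by genotype. On chow its probe read 405.5, 319, 99.5, 589, 508 and 168 units in the 6 mice. In Pgc1α fl/fl mice on HFD it read 1785, 1309, 1207, 1988.5, 1576 and 1277 units, and in iPgc1α-/- mice on HFD 1927, 1590, 1069, 2380, 3772 and 1027.5 units. The chow mice were all below every HFD mouse and were widely scattered among themselves, with the lowest in the third mouse and the highest in the fourth. Normalized log2 levels were 8.08 ± 0.93, 10.63 ± 0.13 and 10.80 ± 0.43 (SD, n = 6 each) in the same order of groups. The diet difference was 2.54 (SE 0.30), or 5.83-fold, and values of 2.80, 2.67 and 2.16 were found within the 3 slides. The genotype difference on HFD was 0.17 (SE 0.30), or 1.12-fold, less than the pooled SD between mice of 0.60. That SD and the SE take in the scattered chow mice (SD 0.93), while the 2 HFD groups alone had SDs of 0.13 and 0.43. Within slides it was 0.58, -0.04 and -0.04, so its sign depended on the slide. The iPgc1α-/- values, 10.21 to 11.32, enclosed the 10.40 to 10.78 of the Pgc1α fl/fl mice.

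The probes named Scd3 did not give a single pattern. The Scd3 probe that also lists Scd1 read 23 to 32 units on chow (median 25.5), 63 to 96 in Pgc1α fl/fl mice on HFD (median 83.75) and 86 to 263 in iPgc1α-/- mice on HFD (median 133.5). It was not well above background on any chow array. On the main normalized scale the HFD signal was at least 3.20-fold higher in Pgc1α fl/fl mice and at least 5.85-fold higher in iPgc1α-/- mice. With normexp correction and offset 50 the diet difference was 1.01 on the log2 scale, below the first bound, so these bounds hold for the main processing only. Its groups followed the order of Scd1, and by genotype it differed by 0.87 (SE 0.15) on the log2 scale, or 1.83-fold, with overlap.

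The other bright Scd3 probe, at chr19:44318249-44318308, read 503 to 794.5 units on chow, 445 to 753 in Pgc1α fl/fl mice on HFD and 464 to 985 in iPgc1α-/- mice on HFD. These groups lay on top of each other, with normalized log2 means of 9.16, 9.29 and 9.33. Its diet difference was 0.13 and its genotype difference 0.04 (SE 0.08 each). The last pair of Scd3 probes, at chr19:44316412-44316471 and chr19:44316559-44316618, read 17 to 25 and 19 to 25.5 units over all 18 arrays. Both were at background in every mouse and give no level of Scd3 in any group. The array file ties them to Scd3 transcripts that the other bright probe also lists. The transcript behind that bright probe is therefore uncertain, and its flat values need not be those of Scd3.

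Scd4 groups overlapped in both contrasts at each of its measured probes. The bright Scd4 probe, at chr19:44421034-44421093, read 1694 to 3108 units on chow, 2098.5 to 3213 in Pgc1α fl/fl mice on HFD and 2068 to 3855.5 in iPgc1α-/- mice on HFD. Normalized log2 means were 11.05 ± 0.22, 11.32 ± 0.21 and 11.48 ± 0.13 (SD, n = 6 each), and both contrasts overlapped, with differences of 0.27 by diet and 0.16 by genotype (SE 0.11 each). The array file lists transcripts of Ube2l6, 2610524H06Rik and Prss35 beside Scd4 for this probe. The brightest probe of Ube2l6 alone, which encodes a conjugating enzyme of the ubiquitin family, read 855 to 2104.5 units over the 18 arrays, so the transcript behind the bright Scd4 probe is uncertain. A dimmer Scd4 probe at chr19:44420742-44420801 read 29 to 45 units and differed by 0.10 by diet and -0.01 by genotype (SE 0.09 each). The last Scd4 probe, at chr19:44408983-44409042, read 18 to 26 units and was at background on all 18 arrays.

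Over the 7 tested probes, 4 had groups that did not overlap by diet, namely both Scd1 probes, the Scd2 probe and the Scd3 probe that also lists Scd1. Over all tested probes the share was 9.48%. By genotype 1 of 7, the bright Scd1 probe, had groups that did not overlap, against 0.853% of all tested probes. Nothing is read from these shares, because the genes were chosen for these differences.

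**Figure D2:**
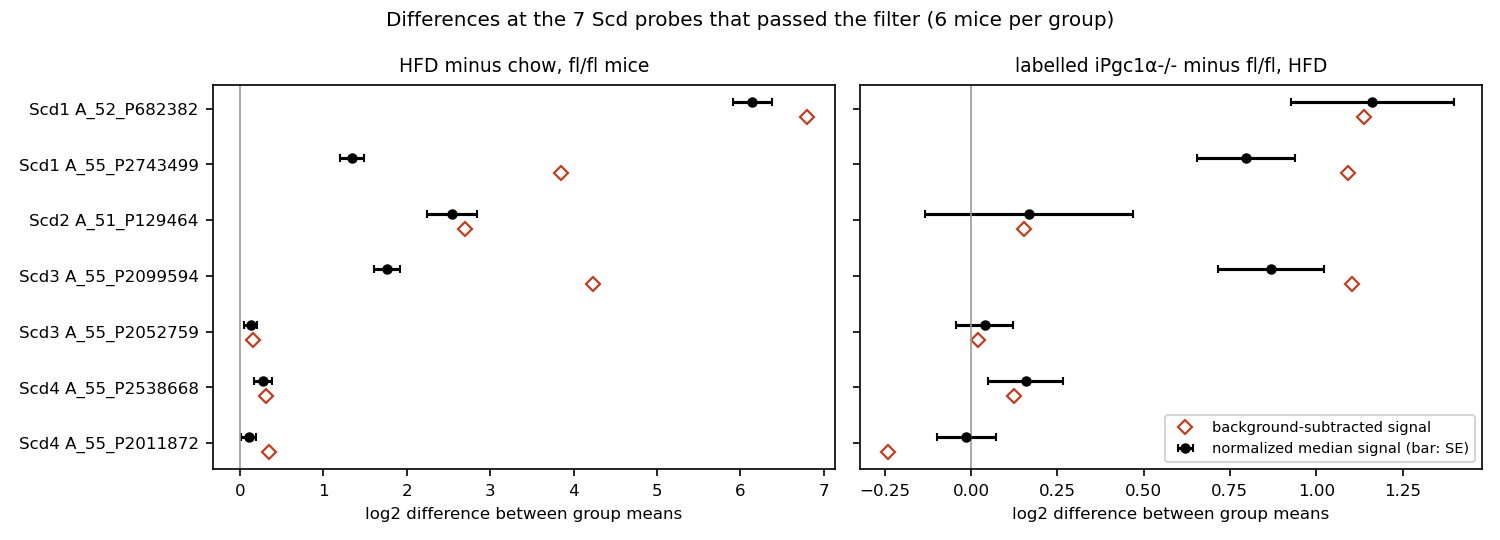
Log2 differences of the 7 tested Scd probes by diet (Pgc1α fl/fl mice, HFD minus chow) and by genotype (HFD, iPgc1α-/- minus Pgc1α fl/fl), with black points and bars for the normalized median signal ± SE and red diamonds for the background-subtracted signal. The 2 dim probes that followed Scd1 moved from 1.34 and 1.77 to 3.86 and 4.23 by diet once local background was subtracted, while the Scd2 probe moved from 2.54 to 2.70.

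Within the HFD groups, the signals of the 2 dim probes lay at a steadier distance from the bright Scd1 probe than those of Scd2. Around the group means of the 12 HFD arrays, the background-subtracted log2 signal of the bright probe minus that of the dim Scd1 probe had a pooled SD of 0.136. For the Scd3 probe that also lists Scd1 this SD was 0.155. For Scd2 it was 0.409, and for the other bright Scd3 probe 0.388. The signals of the dim Scd1 and the shared Scd3 probe alone had pooled SDs of 0.586 and 0.571 around the same means. Those of Scd2 and the other bright Scd3 probe had 0.541 and 0.368. These signals were not scaled between arrays, so their SDs also take in differences in brightness between whole arrays. At the bright Scd1, dim Scd1 and shared Scd3 probes, iPgc1α-/- mice 4 and 5 were the highest of their group and mouse 6 the lowest. In this unscaled signal the same held at Scd2 and at the other bright Scd3 probe, so it does not set the 3 probes apart.

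Variation between mice of one group, which did not serve in choosing the genes, was compared by correlating deviations from the group means over the 18 arrays. Of 12 relations with the bright Scd1 probe, 1 passed the Benjamini-Hochberg adjustment. This was the dim Scd1 probe, with Pearson's r = 0.83 (two-sided permutation within groups, p = 0.00011, adjusted p = 0.00132) and Spearman's rho = 0.76 (adjusted p = 0.0110 by the same permutation). The dim probe passed the filter only through the HFD groups and was not well above background on the 6 chow arrays, which this value includes. On the 12 HFD arrays alone, a choice made after the values were seen, r was 0.96 (permutation within groups, p = 9.0e-05, adjusted p = 0.00108) and rho 0.91 (permutation, adjusted p = 0.00768), with r = 0.91 without the 2 mice farthest from the median. Within the groups r was 0.88 in Pgc1α fl/fl mice and 0.98 in iPgc1α-/- mice on HFD. With the background-subtracted signal of all 18 arrays r was 0.71 and the adjusted permutation p was 0.106, which no longer passed. Both probes are named Scd1, so their relation says nothing about the other genes of the family.

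Scd2 deviated with Scd1 less closely. Its r with Scd1 was 0.53 (permutation p = 0.0497, adjusted p = 0.298) and its rho 0.41 (permutation p = 0.120, adjusted p = 0.60). The sign was not the same in every group, with r = 0.65 for chow, -0.65 in Pgc1α fl/fl mice on HFD and 0.67 in iPgc1α-/- mice on HFD. With slide means removed too, r was 0.68 (permutation, adjusted p = 0.0590). For the other 10 genes, r with Scd1 lay between 0.10 for Srebf1, which encodes SREBP1, and 0.41 for Acss2, which makes acetyl-CoA from acetate. Fatty acid synthase (Fasn) gave 0.27, the elongase Elovl6 0.30 and Ppargc1a 0.25, and the permutation p-values of these 10 were between 0.529 and 0.749 after adjustment.

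**Figure D3:**
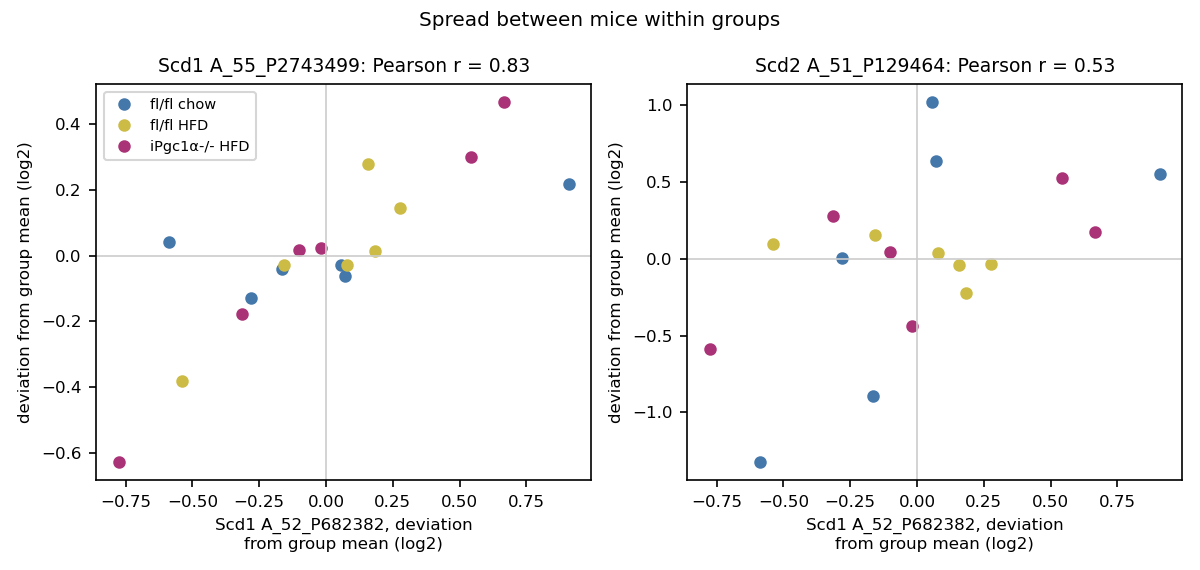
Deviation of the log2 normalized signal from the group mean for the bright Scd1 probe (horizontal axis) against the dim Scd1 probe (left, r = 0.83) and Scd2 (right, r = 0.53), 1 point for each of the 18 mice, coloured by group. The dim Scd1 probe, at background on chow, followed the bright one in both HFD groups, while Scd2 followed it on chow and in iPgc1α-/- mice and ran the opposite way in Pgc1α fl/fl mice on HFD.

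The genes whose pattern over the 18 arrays was most like that of Scd1 were found by the root mean square distance between z scores. The nearest was Otop2, an otopetrin proton channel, at 0.201, followed by Ugdh, which makes UDP-glucuronate, at 0.219, and Aldh1a1, a retinaldehyde dehydrogenase, at 0.242. Then came 4930528H21Rik (0.244), the aldo-keto reductase Akr1c19 (0.244), Plk5 (0.245), Wfdc21 (0.247), the fatty acid amide hydrolase Faah (0.259), the leukotriene C4 synthase Ltc4s (0.261) and Pbld2 (0.261). None of these is an enzyme of fatty acid synthesis or desaturation, and each differed less by diet than Scd1, from 1.01 for Ugdh to 3.91 for Otop2 on the log2 scale. By genotype they differed by -0.02 for Wfdc21 to 0.78 for 4930528H21Rik, against 1.16 for Scd1, so nearness does not mean a shared genotype difference. Under the other signals and normalizations tried, which were chosen after the values were seen, 8 to 10 of the 10 stayed among the nearest. For Scd2 the nearest, also taken after its values were seen, were Hnf4aos (0.300), the steroid reductase Srd5a1 (0.304) and the creatine synthesis enzyme Gamt (0.320), and 6 to 9 of its 10 nearest stayed under the same alternatives, 6 with the background-subtracted signal. In deviations from group means, the highest r with Scd1 was that of Gal3st1, which sulfates galactosylceramide (0.88), and Vax2os (0.85), with 3 transcripts without a gene symbol at 0.80 to 0.81. At the low end stood 4 transcripts without a symbol, from -0.85 to -0.78.

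Other genes of the Scd neighbourhood did not differ by diet as Scd1 and Scd2 did. Within 200 kb of the cluster, 12 tested probes of 8 other genes had diet differences from -0.48 to 0.28 and genotype differences from -0.25 to 0.25 on the log2 scale. A gene was called where limma gave an adjusted p of at most 0.05 and a fold change above 1.5 at any of its probes. By this rule 0 of the 8 were called in either contrast. At an unadjusted p below 0.05 there were 5 of the 12 probes by diet and 2 by genotype. The rule called 9.1% of all tested genes by diet and 0.162% by genotype, so a count of 0 among 8 says little. The lowest diet value, -0.48, belonged to a probe inside the cluster that the array file names Cplx2.

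**Figure D4:**
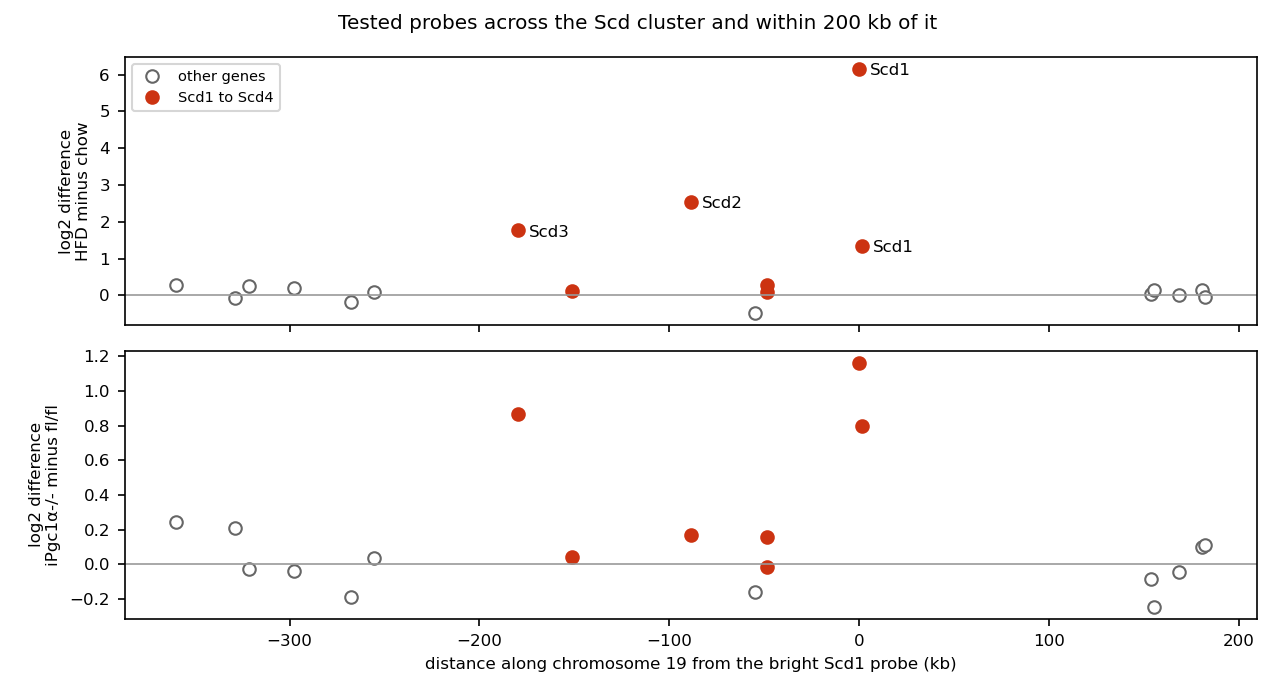
Log2 difference by diet and by genotype of each tested probe within 200 kb of the Scd cluster against its distance in kb from the bright Scd1 probe, with Scd probes named and other genes in grey. The Scd1 and Scd2 probes and the Scd3 probe that also lists Scd1 stand at 1.34 to 6.14 by diet, and the other genes between -0.48 and 0.28.

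The enzymes that supply the saturated acyl chains which Scd proteins act on did not follow Scd1. Of 10 measured fatty acid synthesis genes, 1 rose and 2 fell by diet in Pgc1α fl/fl mice, where 3.53% of all tested genes were called higher and 5.58% lower. Malic enzyme (Me1), a source of NADPH, rose by 1.94 (SE 0.24, limma adjusted p = 1.07e-05). Fasn, which builds palmitate, fell by 0.66 (SE 0.15, limma adjusted p = 0.00261), from 12.52 to 11.86. Acacb, the acetyl-CoA carboxylase at mitochondria, fell by 1.04 (limma adjusted p = 0.00552) and was called at 1 of its 3 probes. Acaca, the carboxylase of the cytosol, had a difference of 0.00 (adjusted p = 0.984), and Acly, which provides cytosolic acetyl-CoA, had -0.52 (adjusted p = 0.000781), under the fold threshold. The median of the list was -0.03, against 0.003 over all genes. The call of Fasn was lost without the fourth chow mouse or without the third Pgc1α fl/fl mouse on HFD (-0.57 each) and with median signal scaled to the 75th percentile (-0.58).

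Elongases and other desaturases showed no difference of the size seen at Scd1. Of 12 measured genes, 1 was called, and it was lower, where 5.58% of all tested genes were called lower. Nothing is read from that count. Hsd17b12, the ketoacyl reductase of elongation, fell by 0.62 (limma adjusted p = 2.23e-06), a call lost without the second chow mouse and with normexp correction (-0.58 each). It was called at 1 of its 2 probes. Elovl6, which elongates palmitate to the stearate that Scd1 desaturates, differed by -0.49 (SE 0.21, adjusted p = 0.106). Fads1 and Fads2, the desaturases of polyunsaturated fatty acids, differed by -0.12 and 0.08 (adjusted p = 0.581 and 0.656). Among 5 measured electron donors of the desaturase, 1 was called, and it was higher, against 3.53% of all tested genes. Cyb5r3, the cytochrome b5 reductase, rose by 0.68 (SE 0.10, limma adjusted p = 4.79e-05), while Cyb5a, cytochrome b5 itself, had -0.08 (adjusted p = 0.729).

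Among 19 transcriptional regulators of lipogenesis, 3 rose and 3 fell by diet, against 3.53% called higher and 5.58% lower of all tested genes. Srebf1, whose SREBP1c product is a known activator of Scd1, rose by 1.54 (SE 0.12, limma adjusted p = 6.81e-08), from 11.71 ± 0.25 to 13.25 ± 0.10 (SD, n = 6 each). Ppara, a receptor for fatty acids, rose by 1.63 (limma adjusted p = 7.84e-09), and Nr1h3, which encodes LXRα, by 0.67 (limma adjusted p = 3.37e-06). Insig1 and Insig2, which hold SREBP in the endoplasmic reticulum, had -0.93 and -0.68 (limma adjusted p = 0.000205 and 0.000101). Pparg fell by 0.64 (limma adjusted p = 0.00809), a call lost without the third chow mouse (-0.50) or the second Pgc1α fl/fl mouse on HFD (-0.55). Mlxipl, the carbohydrate response factor ChREBP, had -0.22 (adjusted p = 0.165).

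LXR targets other than Scd1 were mostly higher on HFD. Of 9 measured, 7 rose and 2 were not called, with a median difference of 0.67, where 3.53% of all tested genes were called higher. The cholesterol exporter Abca1 rose by 1.84 (limma adjusted p = 1.83e-05), Mylip, a ubiquitin ligase, by 1.13 (limma adjusted p = 6.56e-06), and Abcg8 and Abcg5, which together export sterols at the brush border, by 0.93 and 0.64 (limma adjusted p = 5.02e-05 and 0.00105). Srebf1, Nr1h3 and Lpcat3 belong to this list as well as to others. Abcg1 and Arl4c had 0.19 and 0.10 (adjusted p = 0.262 and 0.702). Abcg5 was not called without the fourth chow mouse (0.53).

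SREBP2 targets of cholesterol synthesis ran opposite to Scd1 by diet. Of 18 measured, 14 fell and 4 were not called, with a median of -1.09, where 5.58% of all tested genes were called lower. Squalene epoxidase (Sqle) had a difference of -2.55 (limma adjusted p = 8.79e-08), Fdps -1.69 (limma adjusted p = 5.66e-08), and the HMG-CoA synthase Hmgcs1 -1.66 (limma adjusted p = 1.04e-06). Among those not called, Sc5d had 0.13, Dhcr7 -0.22 and Stard4 0.04.

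Of 22 measured genes that use or store monounsaturated acyl-CoA, 3 rose and 1 fell, with a median of 0.25. Shares over all tested genes were 3.53% called higher and 5.58% called lower. Plin2, a lipid droplet coat protein, rose by 0.65 (limma adjusted p = 0.00615), and Lpcat3, which puts acyl chains into phospholipids, by 0.61 (limma adjusted p = 0.000142). Acsl4, an acyl-CoA synthetase that prefers arachidonate, fell by 0.65 (limma adjusted p = 6.31e-05), and Lpin2 was called at 2 of its 6 probes, although its brightest had 0.53. Acsl4 was called at 1 of its 3 probes and Plin2 at 1 of its 2. Dgat1, the last enzyme of triglyceride synthesis, had 0.48 (adjusted p = 0.00143), under the fold threshold. Plin2 was not called without the fifth chow mouse (0.56) or the fifth Pgc1α fl/fl mouse on HFD (0.57), Lpcat3 without the first chow mouse (0.56) or that same HFD mouse (0.58), and Acsl4 with normexp correction (-0.42).

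**Figure D5:**
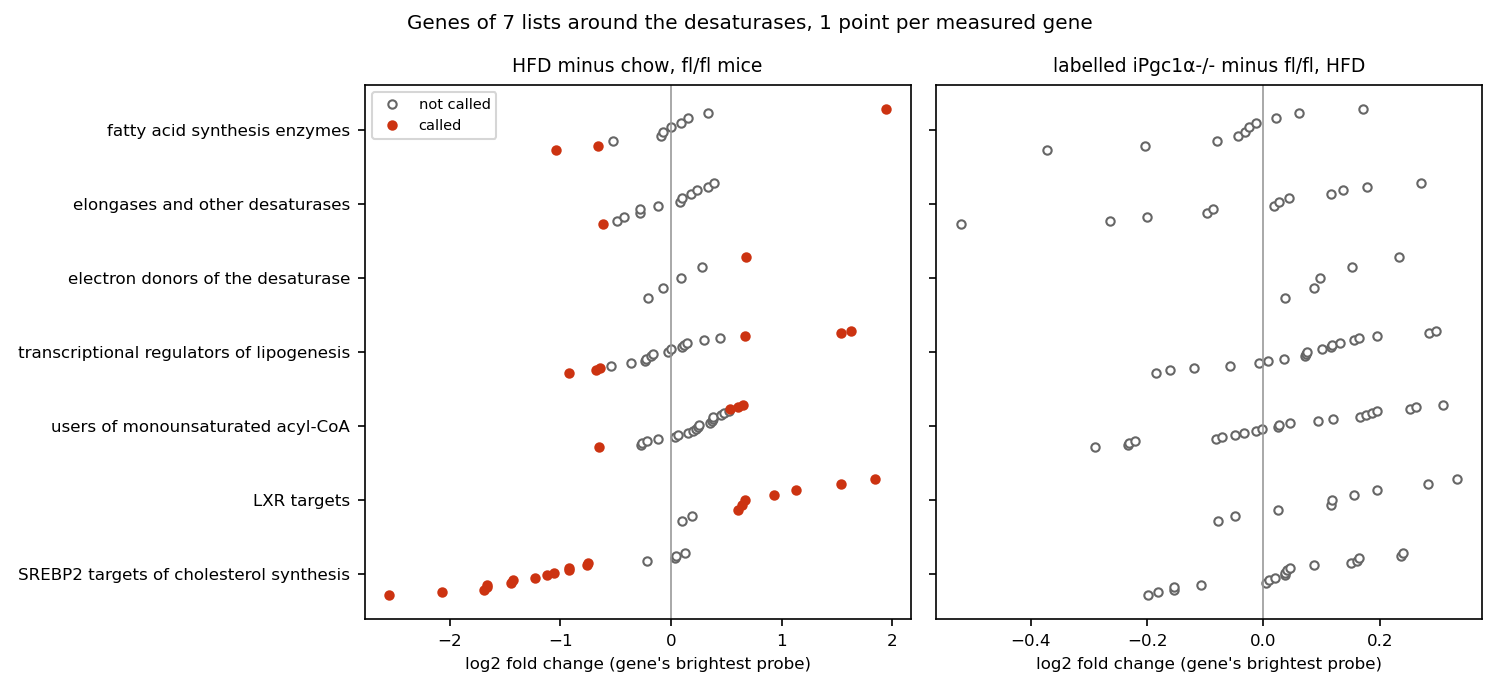
Log2 fold change by diet and by genotype of every measured gene of the 7 lists around the desaturases, 1 point for each gene at its brightest probe, red where called by limma. By diet 7 of 9 LXR targets were called higher and 14 of 18 SREBP2 targets lower, against 3.53% and 5.58% of all tested genes. By genotype 0 of the 91 measured genes were called, against 0.162% of all tested genes.

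Over the 7 lists, 12 genes were called higher and 20 lower by diet, 32 of 91, against 9.1% of all tested genes in either direction. By genotype on HFD, where the bright Scd1 probe differed by 1.16, limma called 0 of the 91 measured list genes. At an unadjusted p below 0.05 there were 8, and over all tested genes 0.162% were called. The mean was higher in iPgc1α-/- mice for 57 of the 91 and lower for 34, with a median of 0.04 against 0.0059 over all genes. Srebf1 had 0.16 (SE 0.12, adjusted p = 0.705), Fasn -0.08 (adjusted p = 0.887), Me1 -0.02 (adjusted p = 0.982), Abca1 -0.05 (adjusted p = 0.963) and Sqle -0.15 (adjusted p = 0.841). Elovl6 had -0.52 (SE 0.21, adjusted p = 0.467), and Cyb5r3 0.23 (adjusted p = 0.478).

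Markers of several cell types moved with diet beside Scd1 and Scd2. For the counts below, 3.53% of all tested genes were called higher and 5.58% lower by diet. Of 7 enterocyte markers 3 were called higher on HFD, namely Fabp1 by 0.88, Apoa4 by 0.98 and Alpi by 0.90 (limma adjusted p = 0.00680, 0.000590 and 0.000189), while Vil1 had 0.20 (adjusted p = 0.0944). Their summed raw signal was 526486 to 786813 units on chow, 663053 to 918465 in Pgc1α fl/fl mice on HFD and 777454 to 1082147 in iPgc1α-/- mice on HFD. Of the ileal markers Fabp6 had -0.11 (adjusted p = 0.757) and Slc10a2 fell by 1.07 (limma adjusted p = 0.0230), a call lost without chow mouse 2 (-0.88) or 4 (-0.99) or Pgc1α fl/fl HFD mouse 4 (-0.81). Of 4 goblet cell markers 3 were called lower, Clca1 not without chow mouse 2 (-0.58), and their sum was 253773 to 366160 units on chow against 101834 to 297451 in Pgc1α fl/fl mice on HFD. Of 4 B and plasma cell markers 3 were called lower, with sums of 788.5 to 2456.5 units against 149 to 838, and of 4 T cell markers Cd3e, Cd3g and Cd8a were called lower and Cd4 higher. The call of Cd3e was lost without chow mouse 1 (-0.58). That of Cd4 was lost, at 0.45 to 0.66, without any of chow mice 1, 2, 4, 5 and 6, Pgc1α fl/fl HFD mice 2, 3, 5 and 6 or iPgc1α-/- mice 1 to 4. In 3 other lists 1 marker was called lower. Of 3 tested markers of macrophages and dendritic cells it was Itgax, by -0.82 (limma adjusted p = 0.00740). Of 3 Paneth cell markers it was Mmp7, by -0.69 (limma adjusted p = 0.0446), and of 5 crypt and cycling markers Top2a, by -0.59 (limma adjusted p = 0.0373). Not called were Cd68 (-0.31), Csf1r (-0.04), Lyz1 and Defa24 (0.00 each), Lgr5 (0.29), Ascl2 (0.10), Olfm4 (-0.23) and Mki67 (-0.53). Mmp7 was not called without any of chow mice 1, 3 and 6, Pgc1α fl/fl HFD mice 2 to 6 or iPgc1α-/- mice 4 and 5 (-0.69 to -0.58), nor Top2a without any of chow mice 4 to 6 or Pgc1α fl/fl HFD mice 2, 3 and 6 (-0.59 to -0.46). The part of these shifts in the Scd1 and Scd2 values was not tested. Of 5 tested markers of fat, limma called 0 in either contrast, with 1 at an unadjusted p below 0.05 by diet and 1 by genotype. The largest diet difference among them, -0.94, was that of Cfd (limma adjusted p = 0.0555). Whether fat cells had a part in the Scd1 values was not tested. Summed signals of the fat markers were 268.5 to 560.5 units on chow, 208 to 465.5 in Pgc1α fl/fl mice on HFD and 279.5 to 649 in iPgc1α-/- mice on HFD. Adipoq was well above background on 0 of 6, 0 of 6 and 1 of 6 arrays of these groups, and Plin1 on 5, 1 and 0. Lep was so on 6 of 6 arrays in every group, Cfd and Retn on 6, 5 and 6, and Fabp4 on 5, 3 and 6. Albumin (Alb), a defining marker of liver, was well above background on 1 chow array and on 0 of the 12 HFD arrays, while Apoh and Ttr of the same list were on all 18, with diet differences of 0.47 (adjusted p = 0.00158, under the fold threshold) and -0.38 (adjusted p = 0.253). Between genotypes limma called 0 of 47 tested markers, against 0.162% of all tested genes, with 4 markers at an unadjusted p below 0.05.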

How the data were processed

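The authors deposited, for each of 18 arrays, the spot intensity output of Agilent Feature Extraction 10.10.1.1, not normalized, and a table of log2 values that were filtered, corrected for batches (washing bath, labelling serial) and normalized with qsmooth. The labels used here name no batch, which left that correction out, and the authors' log2 values served as an alternative. Groups and replicate numbers came from the labels. Coordinates are those of the array files (mm9).

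Control spots and between 46 and 153 outlier spots of each array were dropped, and spots of a probe averaged. Log2 median signals went through a reimplementation of qsmooth (R 4.3.3, window 0.05). One limma 3.58.1 model (lmFit, eBayes) of the 3 groups gave differences, standard errors and Benjamini-Hochberg adjusted p-values over 32726 probes of 21542 genes. List genes are given at their brightest probe. A p-value measures the spread between mice, and 6 arrays per group limit the precision (median standard error 0.104). For "at least" folds, the mean of a dim group was replaced, array by array, by the higher of its own value and the lowest signal among probes well above background. These folds hold for the main normalization and this floor only. Correlations used 100000 permutations within groups. The procedure was tested on simulated arrays. Plots used matplotlib 3.10.9 in Python 3.11.15.

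The Scd genes, the 7 lists (102 genes) and the markers were chosen with earlier results of these data known. Named genes are all Scd probes, the called genes of each list with the uncalled ones needed to describe it, the 10 nearest in pattern, the 5 highest and 5 lowest in r with Scd1 within groups, and Ppargc1a, apart from a few genes whose single values are not reported here. Elongation genes whose older symbols were listed and not found on the array were not measured. Alternatives were other background corrections and normalizations, the authors' values, other filters, slide and replicate blocks, fewer groups, averaged probes, no fold threshold, and each array left out.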

Additional observations from a re-analysis of the deposited data

Results flagged for a closer look

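In 8 of 117 groups of 6 arrays examined among Scd probes and named list genes, 1 array lay far from the other 5, where chance gives about 5% of groups. No Scd probe was among them. On the log2 scale these were Me1 at 12.69 in the sixth Pgc1α fl/fl mouse on HFD, Nr1h3 at 12.68 in the fourth and Lpcat3 at 14.92 in the first mouse of that group. On chow, Abca1 at 7.521, Abcg5 at 14.08 and Mylip at 7.997 all belonged to the fourth mouse. In the iPgc1α-/- group they were Insig1 at 5.793 in the sixth and Nsdhl at 7.268 in the third mouse.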

How the results depend on the processing

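Of 93 alternative values of the 9 summary results, 85 kept their direction and size or call. The diet difference of the bright Scd1 probe, 6.14 as reported, was 6.80 with the background-subtracted signal, 5.61 with normexp and quantile normalization, and 3.74 as the mean of both Scd1 probes. Genes called by diet numbered 1960 as reported, 3025 with the background-subtracted signal and 5874 without the fold threshold. Without that threshold, list genes called by diet went from 32 to 49 and genes called by genotype from 35 to 58. With the background-subtracted signal, 0 of the 12 correlations with Scd1 passed, against 1. The cause of these shifts was not tested, except that dropping a threshold or averaging with a dim probe acts by construction.

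Leaving out each array in turn, the diet difference was 6.03 to 6.33 for Scd1 and 2.28 to 2.75 for Scd2, and the genotype difference 1.03 to 1.32 and 0.06 to 0.29. Genes called by diet were 1754 to 2170 and by genotype 25 to 48, and list genes called by diet 30 to 33 and by genotype 0. With replicate number as a block, Scd1 differed by 6.14 and 1.16, Scd2 by 2.54 and 0.17, and 1972 and 31 genes were called by diet and by genotype, against 1960 and 35, with 32 and 0 list genes in both fits. The numbers were not taken as pairs, because same-numbered mice did not deviate together for every number (mean r by number from -0.08 to 0.28), although 8 of 18 arrays correlated best with an array of their own number. Signal over background limits the chow levels of the dim Scd1 probe and of the Scd3 probe that also lists Scd1, whose diet differences ran from 0.71 to 3.86 and from 1.01 to 4.23 over the settings.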
